A study of Homo sapiens with 6 samples.

Results

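GDF15, FGF21, STC2, ADM2, VEGFA, ANGPTL4 and CALCA encode 7 proteins or peptide precursors that cells secrete, and several of them are known to be made in larger amounts under stress. They were chosen by name, selected on FPKM values of these libraries already known, so their levels and differences are given as a description and carry no test. All 7 were found among the 60658 Ensembl identifiers listed for each library. RNA came from C4-2B MDVR cells, an enzalutamide-resistant derivative of the C4-2B prostate cancer line that was maintained with 20 µM enzalutamide, and from CWR22Rv1 cells, a castration-resistant prostate cancer line maintained without it. Cultures of each line received DMSO vehicle or an inhibitor of the chaperone HSP70, either apoptozole (APO) at 10 µM or VER155008 (VER) at 10 µM, and RNA was extracted after 48 h. The titles of the C4-2B MDVR libraries name that line, while their source field says LNCaP-C4-2B and their cell type field says parental. Each of the 6 conditions is a single library, so no difference has a replicate check, no p-value is given, and neighbouring levels cannot be ranked beyond an error that is unknown.

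Secreted stress factors carry a cell's condition to other cells. When misfolded proteins or missing amino acids activate the integrated stress response, the transcription factors ATF4 and CHOP switch on genes of amino acid supply and of several secreted proteins, and GDF15 and FGF21 are known among them. GDF15 is a distant member of the TGF-beta family that acts on the brainstem receptor GFRAL to suppress appetite, and tumours often secrete it. FGF21 is an endocrine fibroblast growth factor that needs the co-receptor KLB, STC2 is a stanniocalcin glycoprotein, ADM2 and the CALCA products are peptides of the calcitonin family, VEGFA is the main growth factor of blood vessels, and ANGPTL4 inhibits lipoprotein lipase.

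Values are FPKM, fragments scaled by transcript length and library size, which allows levels of different genes to be compared per length. A difference is that of log2(FPKM + 0.1), and a gene was compared in a line when it was above 0.1 FPKM in at least 1 of the 3 libraries of that line, so that 20122 genes were compared in C4-2B MDVR cells and 21608 genes in CWR22Rv1 cells. A level under 1 FPKM is called near 0. A low FPKM was measured on the fewest fragments in the C4-2B MDVR DMSO library, since the relative depth read from the low values was 1.14 to 1.66 times higher in the other libraries. The 9 prostate luminal markers were each at or above 1 FPKM in every library, with sums of 922 to 1561 FPKM. Each inhibitor had 6 of the 9 more than 1.2-fold lower in each line, but not always the same 6. For APO, 2 were higher in each line. For VER, 0 were higher in C4-2B MDVR and 2 in CWR22Rv1. In C4-2B MDVR, 35.4% of all genes were lower for APO and 34.9% for VER. The CWR22Rv1 shares were 39.2% and 32.3%. The part of the luminal markers in the results below was not tested. Of other cell types, the 3 endothelial markers summed to at most 0.294 FPKM and the 3 basal markers to at most 0.101 FPKM, with PECAM1, KRT5 and TP63 listed at 0 throughout. The 3 immune markers summed to 0.307 to 3.78 FPKM, CD68 being the highest of them. The 5 fibroblast markers summed to 7.0 to 11.2 FPKM in C4-2B MDVR, mostly COL1A1, and to 18.3 to 32.0 FPKM in CWR22Rv1, where LUM was at 23.9 FPKM with DMSO, 13.1 FPKM with APO and 26.2 FPKM with VER. Neuroendocrine markers set the lines apart, with sums of 15.7 to 22.3 FPKM in C4-2B MDVR and 103 to 174 FPKM in CWR22Rv1. In such bulk RNA, more expressing cells and more RNA per cell cannot be told apart.

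With DMSO, 3 of the 7 genes were near 0 in C4-2B MDVR cells, namely FGF21, CALCA and ANGPTL4, and 1 of the 7, FGF21, was near 0 in CWR22Rv1 cells. VEGFA had the highest level of the 7 in both DMSO libraries. With either inhibitor, all of the 6 genes that passed the filter in C4-2B MDVR cells were more than 1.2-fold higher than with DMSO. Over all genes compared there, 37.7% were that much higher with APO and 35.6% with VER. ANGPTL4 did not pass the filter in this line. In CWR22Rv1 cells all 7 passed, and with either inhibitor 6 were more than 1.2-fold higher and 1, ANGPTL4, was lower. The shares of all genes were 35.6% higher and 39.2% lower with APO, and 32.1% higher and 32.3% lower with VER. Above 2-fold, 6 of 6 were higher with APO in C4-2B MDVR and 6 of 6 with VER, against 15.4% and 14.4% of all genes, and in CWR22Rv1 5 of 7 with APO and 3 of 7 with VER, against 13.8% and 10.8%. Above 4-fold, 4 were higher with each inhibitor in C4-2B MDVR, against 4.44% and 4.05% of all genes for APO and VER, and 2 with each in CWR22Rv1, against 3.8% and 3.03%. These counts follow in part from the choice of the genes. In CWR22Rv1 cells FGF21 was above 0.1 FPKM only with the inhibitors, so that it passed the filter only through the libraries where it was high. Without it, where a gene had to exceed 0.1 FPKM in all 3 libraries, 5 genes were more than 1.2-fold higher with either inhibitor in CWR22Rv1. FGF21 is also among the 5 above 2-fold with APO there, and its log2 difference was 0.44 with a pseudocount of 1, below 2-fold. The APO and VER differences in a line subtract the same DMSO library.

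**Figure D1:**
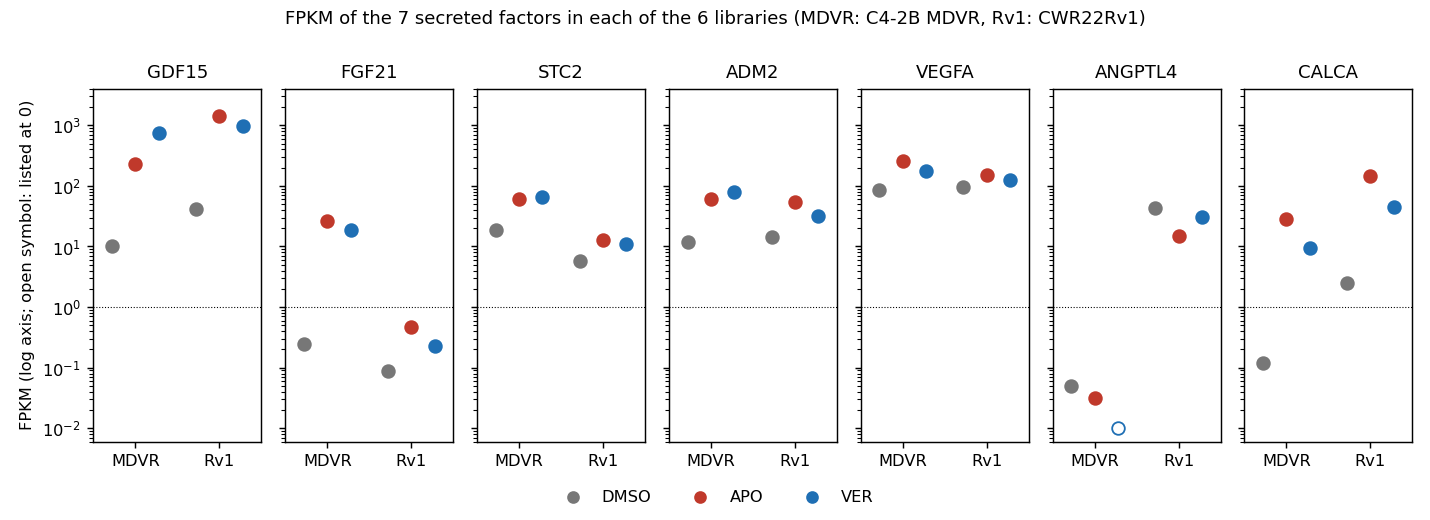
FPKM on a log axis of each of the 7 genes in the 6 libraries, 1 point for each library, coloured by treatment, with C4-2B MDVR (MDVR) on the left and CWR22Rv1 (Rv1) on the right of each panel. The dotted line marks 1 FPKM and the open symbol a value listed at 0. GDF15 reached 1401 FPKM, FGF21 left the range under 1 FPKM in C4-2B MDVR cells but not in CWR22Rv1 cells, and ANGPTL4 was lower with both inhibitors in CWR22Rv1 cells.

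GDF15 (ENSG00000130513) lies on the plus strand of chromosome 19 of GRCh38 from 18374731 to 18389176. In C4-2B MDVR cells it was at 10.0 FPKM with DMSO, 227 FPKM with APO and 753 FPKM with VER. In CWR22Rv1 cells it was at 41.0 FPKM with DMSO, 1401 FPKM with APO and 971 FPKM with VER. All 4 inhibitor libraries were above both DMSO libraries. Both DMSO levels were moderate, so the ratios do not rest on values near 0. The FPKM with APO was 22.6 times and with VER 75.2 times that with DMSO in C4-2B MDVR cells, and 34.1 and 23.7 times in CWR22Rv1 cells. GDF15 moved from place 7587 by FPKM with DMSO, among all identifiers of the library, to place 114 with VER (C4-2B MDVR), and from place 2471 to place 65 with APO (CWR22Rv1). It held 7.81% of the summed FPKM of the 7 genes with DMSO in C4-2B MDVR cells and 34.2% and 68.4% with APO and VER. In CWR22Rv1 cells it held 20.3%, 78.6% and 79.8% with DMSO, APO and VER.

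FGF21 (ENSG00000105550), on the plus strand of chromosome 19 from 48755559 to 48758333, encodes a hormone made chiefly by the liver in fasting and under stress. It was at 0.243 FPKM with DMSO, 26.2 FPKM with APO and 18.6 FPKM with VER in C4-2B MDVR cells. CWR22Rv1 cells had it at 0.0874 FPKM with DMSO, 0.475 FPKM with APO and 0.232 FPKM with VER. All 3 CWR22Rv1 libraries remained near 0, and only the C4-2B MDVR inhibitor libraries were above 1 FPKM. The log2 differences from DMSO were 6.26 and 5.77 in C4-2B MDVR with APO and VER and 1.62 and 0.82 in CWR22Rv1. The differences between lines were 4.65 with APO and 4.95 with VER on the log2 scale, the largest of the 7 genes for either inhibitor. Since the DMSO values are below 1 FPKM, the log2 differences depend on the pseudocount, and with a pseudocount of 1 that with VER in CWR22Rv1 cells was 0.18, below 1.2-fold.

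A short stretch of the FGF21 promoter and the upstream sequence of CALCA are shown because these are the promoters of the group that hold TGATGNAA, the composite element that ATF4 and C/EBP proteins bind. The RefSeq windows of GRCh38.p14 run from 250 bases before to 50 after the start, and 6 of the 7 genes have one in the table, VEGFA being the other. TGATGNAA was searched on both strands and is present in 2 of these 6 windows and in 3.62% of all 35116 windows. Its match is on the opposite strand to the gene in both, so that the capitals below mark the reverse complement. The FGF21 stretch is chr19:48755459-48755488 on the plus strand, bases -65 to -36 from the start, and it was kept to 30 bases because exons of FUT1 fall in the window. The CALCA stretch is chr11:14972355-14972601 on the minus strand, bases -250 to -4.
FGF21: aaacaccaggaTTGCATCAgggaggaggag
CALCA: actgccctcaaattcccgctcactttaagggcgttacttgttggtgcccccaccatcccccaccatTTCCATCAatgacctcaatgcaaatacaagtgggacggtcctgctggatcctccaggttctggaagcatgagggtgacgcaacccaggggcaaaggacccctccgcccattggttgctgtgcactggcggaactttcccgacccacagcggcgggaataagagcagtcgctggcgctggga
GDF15, STC2, ADM2 and ANGPTL4 do not have these letters in their windows. ACGTG, the core letters of the hypoxia response element, was found in 1 of the 6 windows, that of ANGPTL4, and in 21.4% of all windows. CCACG, a part of the endoplasmic reticulum stress element, was found in 4 of the 6, those of FGF21, STC2, ADM2 and ANGPTL4, and in 38.1% of all. CCACG overlaps ACGTG where CCACGTG occurs. These matches describe letters in a window and are not binding sites.

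CALCA (ENSG00000110680), on the minus strand of chromosome 11 from 14966668 to 14972354, encodes calcitonin and, by alternative splicing, calcitonin gene-related peptide. The values are per gene, so the products cannot be told apart. CALCA was at 0.119 FPKM with DMSO, 28.5 FPKM with APO and 9.57 FPKM with VER in C4-2B MDVR cells. In CWR22Rv1 cells it was at 2.50 FPKM with DMSO, 145 FPKM with APO and 45.0 FPKM with VER. Every inhibitor library was above both DMSO libraries, and APO exceeded VER in both lines. The log2 differences from DMSO were 7.03 and 5.47 in C4-2B MDVR with APO and VER and 5.80 and 4.11 in CWR22Rv1. That with APO in C4-2B MDVR was the 8th highest of the 20122 genes compared. It rests on a DMSO value near 0 and was 4.72 with a pseudocount of 1 and 7.79 with one of 0.01. CALCA is also known as a product of neuroendocrine cells, and the part of such cells in its values was not tested. Of the 9 neuroendocrine markers 3 were compared in C4-2B MDVR, with 2 higher and 1 lower for APO and 1 higher and 1 lower for VER. In CWR22Rv1 cells all 9 were compared, with 2 higher and 5 lower for APO and 4 higher and 3 lower for VER. Over all genes in C4-2B MDVR, 37.7% and 35.6% were higher and 35.4% and 34.9% lower for APO and VER. The CWR22Rv1 shares were 35.6% and 32.1% higher and 39.2% and 32.3% lower. The summed level of the markers was 22.3, 18.0 and 15.7 FPKM with DMSO, APO and VER in C4-2B MDVR. In CWR22Rv1 cells the sum was 174, 103 and 154 FPKM. ENO2 made up most of the sum in C4-2B MDVR, at 14.7 to 21.9 FPKM, and was at 79.3, 32.8 and 48.6 FPKM in CWR22Rv1. SYP, which encodes synaptophysin, was at 0.258, 0.741 and 0.917 FPKM in C4-2B MDVR with DMSO, APO and VER. The CWR22Rv1 levels of SYP were far higher, at 49.56, 30.02 and 49.99 FPKM, and thus lower with APO. CHGA, which encodes the granule protein chromogranin A, was listed at 0 in all 3 C4-2B MDVR libraries. In CWR22Rv1 cells CHGA was at 10.9, 8.64 and 11.7 FPKM.

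CALCB, the neighbouring relative of CALCA that encodes a second calcitonin gene-related peptide, was also higher with inhibitor, but by less. With DMSO, APO and VER, C4-2B MDVR cells had CALCB at 0.0836, 3.36 and 0.819 FPKM. In CWR22Rv1 cells CALCB was at 11.9, 38.4 and 20.2 FPKM. With DMSO, CALCB was thus the more abundant of the pair in CWR22Rv1 cells, where the FPKM of CALCA was 0.211 times that of CALCB, whereas with APO it was 3.78 times and with VER 2.23 times. The log2 difference of CALCA exceeded that of CALCB by 2.79 to 4.12 in the 4 comparisons. Of the 50-base stretches of the CALCA transcripts, 1.94% also occur in CALCB transcripts, so a small part of the reads may have been assigned to either gene.

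ADM2 (ENSG00000128165), on the plus strand of chromosome 22 from 50481556 to 50486440, encodes intermedin, a vasodilator peptide. It was at 11.9 FPKM with DMSO, 60.1 FPKM with APO and 79.2 FPKM with VER in C4-2B MDVR cells. In CWR22Rv1 cells it was at 14.6 FPKM with DMSO, 54.3 FPKM with APO and 31.3 FPKM with VER. The DMSO levels of the lines lay close together, and the 4 inhibitor libraries were all above both. The FPKM ratio to DMSO was 5.03 and 6.62 in C4-2B MDVR with APO and VER and 3.73 and 2.15 in CWR22Rv1. Its relative ADM, which encodes adrenomedullin, was near 0 in C4-2B MDVR cells, at 0.216 FPKM with DMSO, 0.189 FPKM with APO and 0.177 FPKM with VER. In CWR22Rv1 cells ADM was at 4.0, 6.88 and 4.93 FPKM. The log2 differences of ADM from DMSO were -0.13 and -0.19 in C4-2B MDVR and 0.77 and 0.29 in CWR22Rv1, below those of ADM2 in each comparison.

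STC2 (ENSG00000113739), on the minus strand of chromosome 5 from 173314713 to 173329503, was at 18.7 FPKM with DMSO, 59.9 FPKM with APO and 65.6 FPKM with VER in C4-2B MDVR cells. CWR22Rv1 cells had it at 5.84 FPKM with DMSO, 12.9 FPKM with APO and 11.2 FPKM with VER. The inhibitors lay close to each other within a line, and every CWR22Rv1 library was below the C4-2B MDVR DMSO library. The FPKM ratio to DMSO was 3.20 and 3.50 in C4-2B MDVR with APO and VER and 2.21 and 1.92 in CWR22Rv1. STC1, the other stanniocalcin, went the opposite way. STC1 was at 4.88 FPKM with DMSO, 0.604 FPKM with APO and 0.862 FPKM with VER in C4-2B MDVR cells. The CWR22Rv1 levels of STC1 were 5.10, 1.09 and 1.58 FPKM. Its log2 differences from DMSO were -2.82 and -2.37 in C4-2B MDVR and -2.12 and -1.63 in CWR22Rv1. The ratio of STC2 to STC1 was 3.83 with DMSO and 99.1 with APO in C4-2B MDVR cells, and 1.15 with DMSO and 11.8 with APO in CWR22Rv1 cells.

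VEGFA (ENSG00000112715), on the plus strand of chromosome 6 from 43770184 to 43786487, had the smallest differences among the 6 genes that were higher, except that with a pseudocount of 1 those of FGF21 in CWR22Rv1 were smaller. It was at 87.2 FPKM with DMSO, 261 FPKM with APO and 175 FPKM with VER in C4-2B MDVR cells. In CWR22Rv1 cells it was at 94.3 FPKM with DMSO, 153 FPKM with APO and 127 FPKM with VER. The order was DMSO, VER, APO in both lines. The log2 differences from DMSO were 1.58 and 1.01 in C4-2B MDVR with APO and VER and 0.70 and 0.42 in CWR22Rv1. The last was the 5334th highest of the 21608 genes compared. VEGFB, a relative that binds the receptor FLT1, was lower with inhibitor, at 4.21, 2.38 and 1.89 FPKM with DMSO, APO and VER in C4-2B MDVR and 6.47, 3.71 and 4.90 FPKM in CWR22Rv1. The relatives did not share this direction. PGF, near 0 with DMSO in both lines, had log2 differences with VER of 1.17 in C4-2B MDVR and 1.31 in CWR22Rv1. With APO those of PGF were 0.22 and -0.52. VEGFC and VEGFD passed the filter only in CWR22Rv1. Their log2 differences there were -0.12 with APO and 0.56 with VER for VEGFC, and -0.40 and -0.67 for VEGFD.

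ANGPTL4 (ENSG00000167772), on the plus strand of chromosome 19 from 8363289 to 8374373, was the exception. In C4-2B MDVR cells it was at 0.0495 FPKM with DMSO and 0.0322 FPKM with APO and was listed at 0 with VER, too low for a comparison. CWR22Rv1 cells had it at 43.4 FPKM with DMSO, 14.8 FPKM with APO and 30.9 FPKM with VER. Both CWR22Rv1 inhibitor libraries were below their DMSO library, with log2 differences of -1.54 with APO and -0.49 with VER. With DMSO, the log2 difference of C4-2B MDVR from CWR22Rv1 was -8.18, which only 20 of the 20903 genes compared between the DMSO libraries fell below. ANGPTL4 was the second most abundant of the 7 genes in CWR22Rv1 cells with DMSO and the fifth with either inhibitor. Of the 13 relatives of the 7 genes that were listed, 7 were compared in C4-2B MDVR, with 1 higher and 4 lower for APO and 2 higher and 4 lower for VER. In CWR22Rv1 cells 8 were compared, with 2 higher and 5 lower for APO and 4 higher and 4 lower for VER. Over all genes in C4-2B MDVR, 37.7% and 35.6% were higher and 35.4% and 34.9% lower for APO and VER. The CWR22Rv1 shares were 35.6% and 32.1% higher and 39.2% and 32.3% lower.

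**Figure D2:**
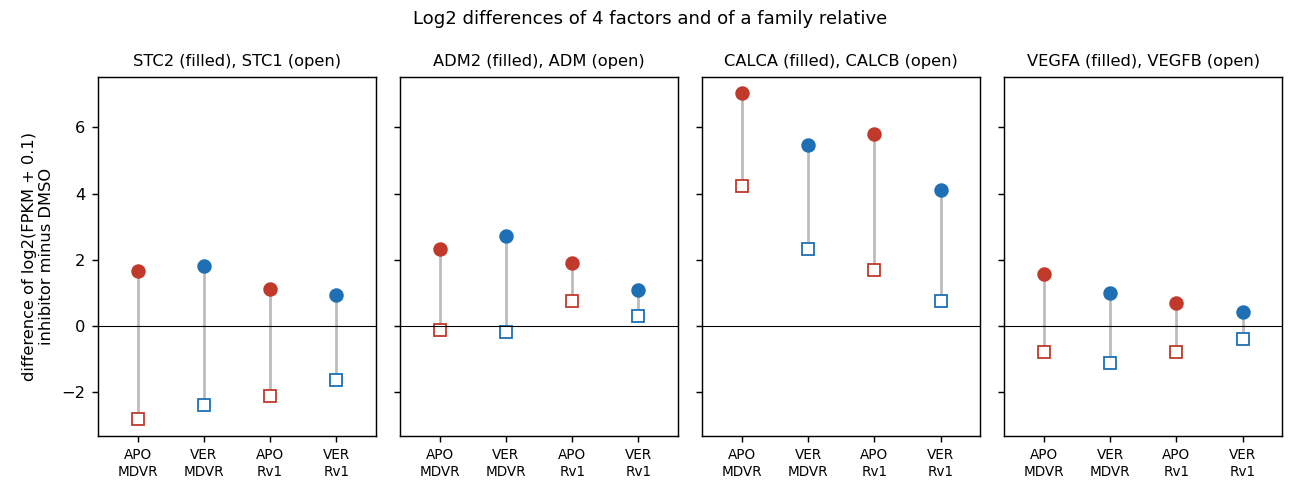
Log2 differences from DMSO, on log2(FPKM + 0.1), of 4 of the genes (filled circles) and of a relative of each (open squares), joined by a line, for APO (red) and VER (blue) in C4-2B MDVR (MDVR) and CWR22Rv1 (Rv1). STC2 and VEGFA lay above 0 in all 4 comparisons while STC1 and VEGFB lay below it, and CALCA lay 2.79 to 4.12 above CALCB. Other relatives are not drawn, among them PGF, which was higher with VER in both lines.

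**Figure D3:**
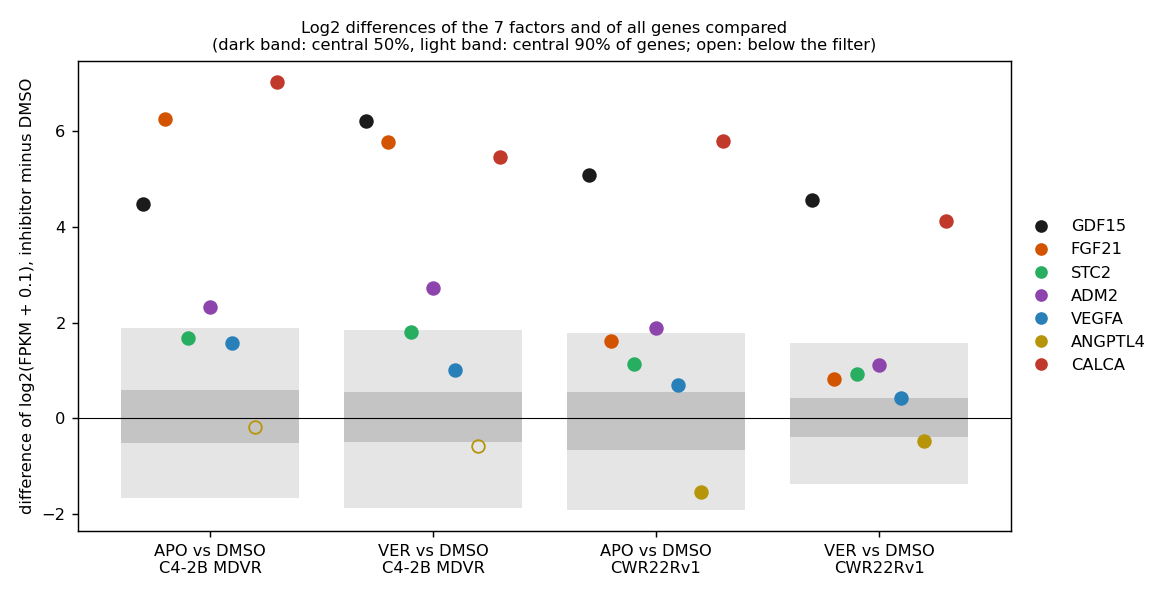
Log2 differences from DMSO, on log2(FPKM + 0.1), of the 7 genes (points) over the central 50% and 90% of all genes compared (bands) in the 4 comparisons, with open symbols for ANGPTL4 where it did not pass the filter. GDF15 and CALCA lay above the light band in all 4, from 4.11 to 7.03, FGF21 did so only in C4-2B MDVR, and ANGPTL4 lay below 0.

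APO and VER, given at the same dose and time, could also be set against each other without DMSO. In C4-2B MDVR cells 2 of the 6 genes compared were more than 1.2-fold higher with VER than with APO, against 28.5% of all genes, and 3 were lower, against 32.5%. In CWR22Rv1 cells 1 of 7 was higher with VER, against 37.3% of all genes, and 5 were lower, against 34.5%. GDF15 was higher with VER in C4-2B MDVR cells, by 1.73 on the log2 scale, and lower in CWR22Rv1 cells, by -0.53. ADM2 had the same pattern with smaller values, 0.40 and -0.79. CALCA was lower with VER in both lines, at -1.56 and -1.69, as were FGF21, at -0.49 and -0.79, and VEGFA, at -0.58 and -0.27. The value of VEGFA in CWR22Rv1 cells was -0.21, below 1.2-fold, when libraries were rescaled to a median ratio of 1. That of FGF21 there was -0.26, also below 1.2-fold, with a pseudocount of 1, and FGF21 was not compared under the stricter filters. STC2 differed by 0.13 and -0.20, below 1.2-fold in both lines. The 12 p53 targets had a median VER minus APO of 1.63 in C4-2B MDVR and 0.56 in CWR22Rv1. The 15 genes of the ATF4-CHOP arm had medians of -0.36 and -1.27. The part of either pathway in the GDF15 values was not tested.

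**Figure D4:**
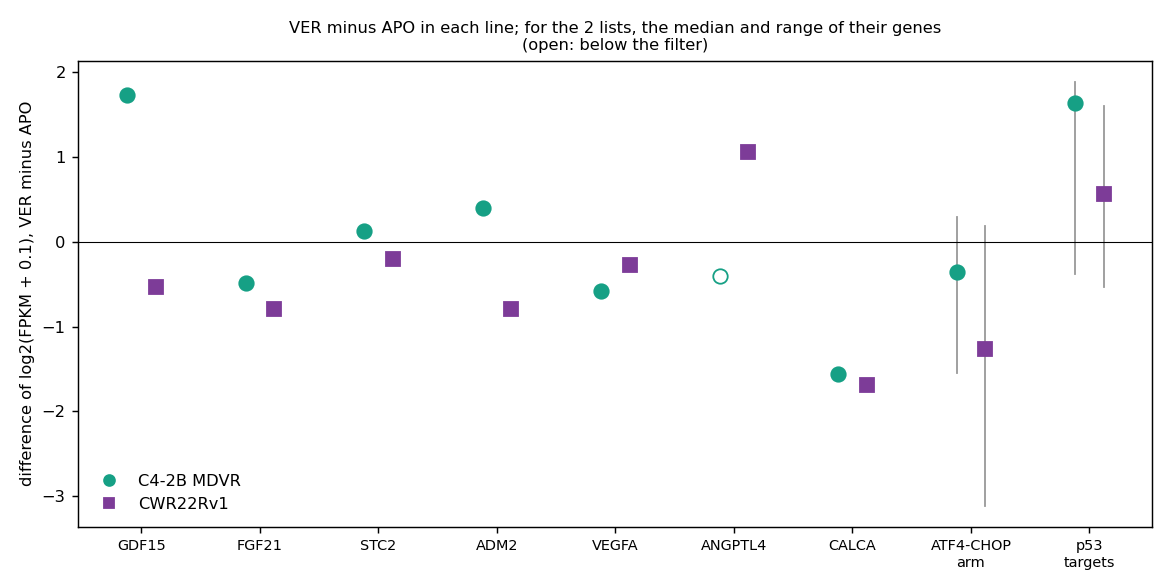
Difference of log2(FPKM + 0.1) between VER and APO for each of the 7 genes in C4-2B MDVR (circles) and CWR22Rv1 (squares), with the median and range of the ATF4-CHOP arm and the p53 targets at the right. The open symbol is ANGPTL4, below the filter in C4-2B MDVR. GDF15 lay at 1.73 and -0.53, and CALCA lay below 0 in both lines.

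Genes of 3 stress pathways were described from lists written with earlier results of these data known. All 15 genes of the ATF4-CHOP arm were more than 1.2-fold higher in each of the 4 comparisons, with median log2 differences of 2.95 and 2.43 in C4-2B MDVR with APO and VER and 2.44 and 0.90 in CWR22Rv1. The median of all genes compared lay between -0.01 and 0. Among the most abundant of the arm, ASNS, the asparagine synthetase, was at 61.6, 575 and 496 FPKM with DMSO, APO and VER in C4-2B MDVR and at 105, 525 and 298 FPKM in CWR22Rv1. PHGDH, the first enzyme of serine synthesis, was at 241, 623 and 553 FPKM and at 80.7, 249 and 142 FPKM. The 10 genes of the endoplasmic reticulum chaperone arm were all higher in C4-2B MDVR cells with either inhibitor. In CWR22Rv1 cells 6 were higher and 4 lower with APO, and 5 were higher and 1 lower with VER. HSPA5, the chaperone BiP, was at 278, 2035 and 863 FPKM in C4-2B MDVR and 437, 727 and 495 FPKM in CWR22Rv1. Of the 12 p53 targets, 9 were higher and 2 lower with APO in C4-2B MDVR, and 12 were higher with VER. In CWR22Rv1 cells 10 were higher and 1 lower with APO, and 12 were higher with VER. Beside these 3 lists, 37.7% and 35.6% of all genes were higher in C4-2B MDVR with APO and VER, and 35.4% and 34.9% lower. The CWR22Rv1 shares were 35.6% and 32.1% higher and 39.2% and 32.3% lower. CDKN1A, which encodes the cell cycle inhibitor p21, was at 54.5, 232 and 855 FPKM and at 41.3, 172 and 359 FPKM. MDM2, another of the p53 targets, was at 51.3, 51.6 and 182 FPKM with DMSO, APO and VER in C4-2B MDVR. Its CWR22Rv1 levels were 54.0, 83.4 and 149 FPKM.

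Genes of the hypoxia response and targets of PPAR receptors were described in the same way, and their part in the values of the 7 genes was not tested. Of the 15 hypoxia genes, 2 were higher and 9 lower with APO and 0 higher and 11 lower with VER in C4-2B MDVR, where 35.4% and 34.9% of all genes were lower. In CWR22Rv1 cells 4 were higher and 9 lower with APO and 4 higher and 7 lower with VER. The shares of all genes there were 35.6% and 32.1% higher and 39.2% and 32.3% lower with APO and VER. Those higher in C4-2B MDVR were 37.7% and 35.6%. LDHA, lactate dehydrogenase A, was at 489, 232 and 168 FPKM with DMSO, APO and VER in C4-2B MDVR and at 405, 236 and 208 FPKM in CWR22Rv1. SLC2A1, the glucose transporter GLUT1, was at 63.7, 60.8 and 43.2 FPKM and at 56.3, 41.0 and 49.5 FPKM. Of the 11 PPAR targets 10 were compared in each line, and their median log2 differences were -0.06 and 0.27 in C4-2B MDVR with APO and VER and -0.15 and 0.03 in CWR22Rv1. CPT1A, the carnitine palmitoyltransferase of fatty acid oxidation, was at 72.6, 37.3 and 63.8 FPKM and at 66.2, 34.5 and 85.7 FPKM.

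**Figure D5:**
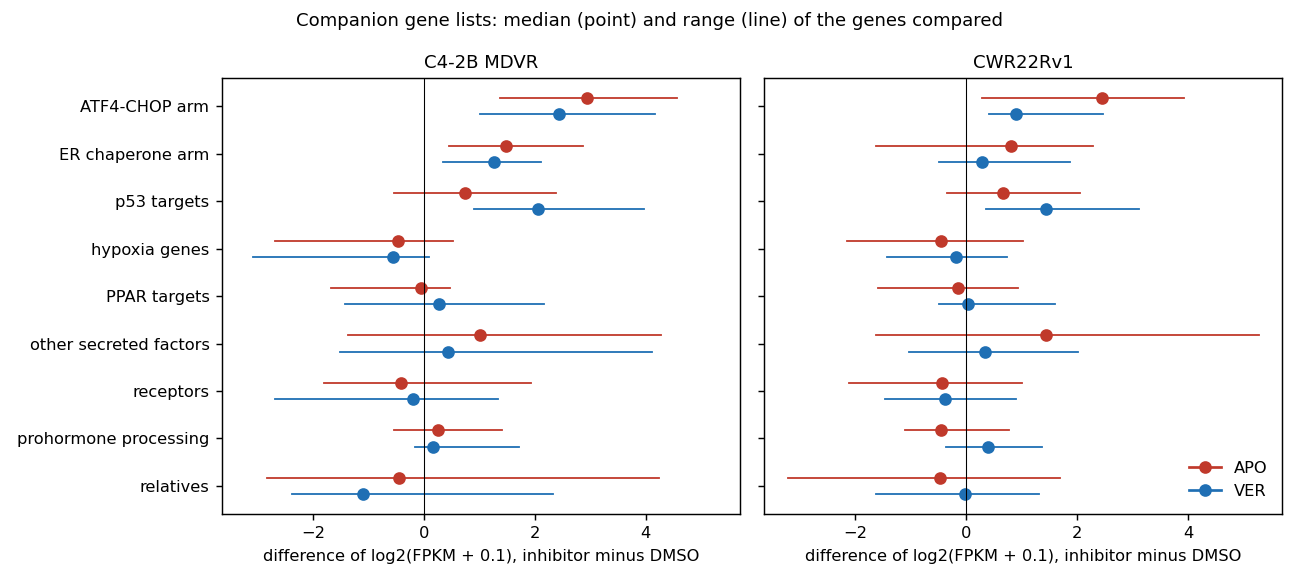
Median (point) and range (line) of the log2 differences from DMSO, on log2(FPKM + 0.1), of the genes compared in 9 companion lists, for APO (red) and VER (blue) in each line. The ATF4-CHOP arm lay wholly above 0 in all 4 comparisons, with medians of 0.90 to 2.95, while the medians of the hypoxia genes lay from -0.56 to -0.18.

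Receptors for these ligands were mostly low in the same cells. GFRAL, the receptor of GDF15, was listed at 0 in all 6 libraries, and its partner RET was at or below 0.238 FPKM. KLB, which FGF21 requires, was between 0.531 and 0.888 FPKM. The vascular receptors FLT1 and KDR, which bind VEGFA, were at or below 0.162 and 0.127 FPKM, while the co-receptor NRP1 was between 4.97 and 22.3 FPKM. For the calcitonin family peptides, CALCRL was at or below 0.358 FPKM, whereas its partner RAMP1 was abundant. RAMP1 was at 84.7, 64.3 and 143 FPKM with DMSO, APO and VER in C4-2B MDVR and at 211, 149 and 395 FPKM in CWR22Rv1. Of the 16 receptor genes, 11 were compared in C4-2B MDVR, with 3 higher and 7 lower with APO and 4 higher and 5 lower with VER. In CWR22Rv1 cells 12 were compared, with 1 higher and 7 lower with APO and 2 higher and 7 lower with VER. Over all genes in C4-2B MDVR, 37.7% and 35.6% were higher and 35.4% and 34.9% lower with APO and VER. The CWR22Rv1 shares were 35.6% and 32.1% higher and 39.2% and 32.3% lower. FGFR3 was lower in all 4 comparisons, at 2.41, 0.617 and 0.291 FPKM in C4-2B MDVR and 44.9, 12.8 and 28.4 FPKM in CWR22Rv1.

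Several of the factors are cut from larger precursors on the way out of the cell. FURIN, a protease of the Golgi that cleaves such precursors, was at 9.42, 25.2 and 31.0 FPKM with DMSO, APO and VER in C4-2B MDVR and at 19.4, 33.4 and 27.4 FPKM in CWR22Rv1. It was the only one of the 8 processing genes more than 1.2-fold higher in all 4 comparisons. PCSK1 and PCSK2, the prohormone convertases of endocrine granules, were at or below 0.218 FPKM in every library. PAM, which amidates calcitonin family peptides, was at 6.73, 4.58 and 7.46 FPKM in C4-2B MDVR and at 13.2, 6.21 and 12.1 FPKM in CWR22Rv1.

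Other secreted factors outside the 7 genes varied. Of 14 listed, 12 were compared in C4-2B MDVR, with 9 higher and 2 lower with APO and 7 higher and 3 lower with VER. In CWR22Rv1 13 were compared, with 8 higher and 4 lower with APO and 7 higher and 3 lower with VER. Of all genes, 37.7% and 35.6% were higher and 35.4% and 34.9% lower in C4-2B MDVR with APO and VER. In CWR22Rv1 these shares were 35.6% and 32.1% higher and 39.2% and 32.3% lower. AREG, INHBA, CXCL8 and TGFB1 in C4-2B MDVR and INHBE, CXCL8 and IL6 in CWR22Rv1 passed the filter only through inhibitor libraries. Their direction thus follows in part from the filter. With APO in CWR22Rv1 the list median was 1.45, and 0.39 for genes above 0.1 FPKM in all 3 libraries. INHBE, the inhibin beta E subunit, was at 0.161, 4.93 and 4.40 FPKM in C4-2B MDVR and at 0.0503, 0.474 and 0.294 FPKM in CWR22Rv1. Like FGF21, it was above 1 FPKM only in the C4-2B MDVR inhibitor libraries. AREG, the growth factor amphiregulin, was at 1.24 FPKM with DMSO, 51.8 FPKM with APO and 5.0 FPKM with VER in CWR22Rv1 cells. In C4-2B MDVR cells AREG was listed at 0 with DMSO and was at 0.853 FPKM with APO and 0.049 FPKM with VER. LIF, a cytokine of the interleukin 6 family, was higher with VER than with APO in both lines, at 1.70, 2.03 and 7.40 FPKM in C4-2B MDVR and 0.670, 0.720 and 3.03 FPKM in CWR22Rv1. VGF, the most abundant of the 14 in CWR22Rv1, was lower there, at 742, 455 and 362 FPKM with DMSO, APO and VER. In C4-2B MDVR it was also lower, with log2 differences of -0.89 with APO and -0.83 with VER. The summed level of the 14 in CWR22Rv1 was 1265, 709 and 915 FPKM with DMSO, APO and VER. In C4-2B MDVR the sum was higher with either inhibitor than with DMSO. CXCL8 and IL6 were at or below 0.287 and 0.679 FPKM throughout, and CCL20 was listed at 0.

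The genes whose profile over the 6 libraries was most like that of GDF15 were LAMP3, DMGDH, CALCA, RPS27P3 and DDX59-AS1; 14241 genes whose mean was 1 FPKM or more were searched. The measure was the root mean square difference of log2(FPKM + 0.1) after each gene was centred on its mean, and it was 0.91 for LAMP3, 0.92 for DMGDH and 1.17 for CALCA, with RPS27P3 and DDX59-AS1 just beyond. LAMP3 encodes a lysosomal membrane protein and DMGDH a mitochondrial enzyme of choline breakdown. All 5 were much less abundant than GDF15, with at most 145 FPKM. None was a close match. In C4-2B MDVR cells GDF15 and RPS27P3 were higher with VER than with APO, while LAMP3, DMGDH, CALCA and DDX59-AS1 were lower. Only CALCA, of the 7 genes, had a more distant nearest profile than GDF15. The nearest profile to CALCA was that of FIBIN, at 0.93. For FGF21 the nearest gene was LTF, at 0.48, which was at 7.02 and 4.40 FPKM in C4-2B MDVR with APO and VER and listed at 0 in the other 4 libraries. STC2 was nearest to ISL2, at 0.14, ADM2 to NATD1, at 0.18, and ANGPTL4 to GPAT2, at 0.22. VEGFA was nearest to ENSG00000275719, which has no symbol in the table used, at 0.10. Among the 7 genes themselves, ADM2 and VEGFA were the closest pair, at 0.60, and FGF21 and ANGPTL4 the most distant, at 6.35.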

How the data were processed

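Per the labels and the study's methods, paired-end RNA reads were aligned with HISAT to GRCh38 and quantified with a Cufflinks pipeline. The values the authors deposited are gene-level FPKM, which Cuffnorm scales across the libraries. Tool versions and the annotation release are not given in the sources used here. The labels describe a stranded kit with selection of polyadenylated RNA, and the study's methods name another kit. Whether strand was used in counting is not given.

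Symbols were matched by Ensembl identifier for 56550 of 60658 identifiers. Coordinates are those of GENCODE 29 on GRCh38. Promoters are those of RefSeq on GRCh38.p14. The tables hold no read counts. Relative depth was read from the most common ratio of low values, but reads per gene were not worked out, so there is no interval for counting error. Differences are of log2(FPKM + 0.1), and calls are above 1.2-fold, for genes above 0.1 FPKM in at least 1 library of the line. With 1 library for each condition, no test was made. Overlap was checked on exons and on 50-base stretches of transcripts. Only ANGPTL4 and VEGFA shared exonic bases with another gene, antisense in both cases and at most 1.30% of their exonic bases.

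The 7 genes and the lists were chosen with earlier results of these data known. All 149 genes listed were matched. The genes named are the 7, any gene of the relative, receptor, processing and other secreted factor lists, up to 4 genes of each other list by mean FPKM, and those with the nearest profiles, 5 for GDF15 and 1 for each other gene. CHGA, ENO2, SYP, CD68, LUM, COL1A1, PECAM1, KRT5 and TP63 were named outside this rule, after their values were seen, as markers of other cell types. One item that this rule covers is not reported here. The alternatives were pseudocounts of 0.01 and 1, other filters, rescaling to a median ratio of 1 or to the same sum (TPM), and thresholds of 1.5-, 2- and 4-fold. The functions for differences and calls were tested on the C4-2B MDVR DMSO values with known fold changes put in. No noise was added, and the filter, motif search and profile measure were not tested in this way. Python 3.11.15, pandas 2.3.3, numpy 2.4.6 and matplotlib 3.10.9 were used.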

Additional observations from a re-analysis of the deposited data

Results flagged for a closer look

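In each of these results the line C4-2B MDVR and the line CWR22Rv1 differed from each other in direction, both by more than 1.2-fold, under the same comparison. Each value is from 1 library against 1 library, and the difference between lines was not tested. VER minus APO, on log2(FPKM + 0.1), was 1.73 in C4-2B MDVR and -0.53 in CWR22Rv1 for GDF15. For ADM2 it was 0.40 and -0.79. For the precursor protease FURIN it was 0.30 and -0.29, and for PCSK6, a related protease, -0.42 and 0.46. Both FURIN values lie close to the 1.2-fold limit and may fall below it under another scaling.

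VER minus APO went the other way for VEGFB and for 3 fibroblast growth factor receptors, lower in C4-2B MDVR and higher in CWR22Rv1. The values were -0.32 and 0.39 for VEGFB, -0.42 and 0.53 for FGFR1, -0.87 and 1.14 for FGFR3, and -0.54 and 1.61 for FGFR4. FGFR2 was not flagged but had the same directions, at -1.49 and 0.39. Its CWR22Rv1 levels were near 0, at 0.198, 0.0724 and 0.126 FPKM with DMSO, APO and VER. APO minus DMSO was 0.60 and -0.76 for CPE, a carboxypeptidase of peptide hormone granules. It was 1.10 and -1.63 for CRELD2 and 0.76 and -1.34 for MANF, both secreted proteins of the endoplasmic reticulum stress response. VER minus DMSO was 0.27 and -0.54 for HBEGF, a growth factor of the epidermal growth factor family. The 0.27 of HBEGF and the -0.32 of VEGFB are also close to the 1.2-fold limit.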

How the results depend on the processing

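No paired analysis was possible because no result comes from a test and each condition has 1 library in a line. A fit over both lines with the line as a block was not made. The number of the 7 genes more than 1.2-fold higher was 6 in each of the 4 comparisons with DMSO, and the pseudocounts of 0.01 and 1, the filters and the rescalings kept it within 1.5 times. In CWR22Rv1 cells it was 3 with VER at 2-fold, and 2 with APO and 2 with VER at 4-fold, which follows from the threshold. No difference of the 7 genes turned its direction. Rescaling to the same sum moved the median of genes above 1 FPKM to -0.13 with APO in C4-2B MDVR and 0.12 with APO in CWR22Rv1, and VER minus APO to 0.12 and -0.22, and values under it are relative to these shifts. STC2, VER minus APO, then passed 1.2-fold, at 0.28 and -0.38. With a pseudocount of 1, FGF21 fell below 1.2-fold with VER against DMSO, at 0.18, and against APO, at -0.26, in CWR22Rv1. The median of the relatives turned from -0.02 with VER in CWR22Rv1 to 0.025 with a pseudocount of 1, 0.29 with genes above 0.1 FPKM in all 3 libraries and 0.022 with a median ratio of 1. It turned from -1.10 to 0.025 with VER in C4-2B MDVR when a gene had to exceed 1 FPKM in a library of the line. The PPAR targets turned from 0.029 to -0.035 with VER in CWR22Rv1 under TPM. The cause was not tested. Counting each list median once for each alternative, 222 values kept their direction and side of 1.2-fold, 22 fell below it, 3 passed it and these 5 turned.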
